A study of Mus musculus with 14 samples.

Results

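The 49799 regions described here are the stretches of chromosomes 1 to 19 where G9a, H3K9me2 and H3K27me3 were all listed as differing between sham-operated and pressure-loaded hearts. They are the regions of the authors' deposited G9a table that share at least 1 bp with a region of the authors' H3K9me2 table and also with a region of the authors' H3K27me3 table. They make up 12.8% of the 387570 G9a regions on these chromosomes. Of the other G9a regions, 166098 overlapped a region of the H3K27me3 table only, 26993 a region of the H3K9me2 table only, and 144680 neither. Since every table lists only regions that the authors selected for a difference, the members were chosen by measured values, and what follows describes them without a test of that choice.

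The series profiled chromatin of cardiomyocyte-enriched cells from C57BL/6J mice by chromatin immunoprecipitation followed by sequencing. One group of mice had transverse aortic constriction (TAC) for 1 week, a surgical narrowing of the aorta that loads the left ventricle, and the other group, titled sham, is labelled as having no treatment. Of the 14 libraries, 12 were immunoprecipitated, 2 biological replicates for each antibody in each condition, and 2 were input, which was not used here. Each region carries 4 values, a first pair and a second pair of libraries, and the tables do not say which pair is TAC. Results are therefore given as second pair against first pair, and the sources used here do not state which of them is the loaded heart. Log2 differences compare the pair means, second over first, after adding 1 to each mean. The H3K9me2 and H3K27me3 values given for a member are those of the whole overlapping region of that mark. Such a region can be wider or narrower than the member.

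G9a, encoded by Ehmt2, is a histone methyltransferase that places H3K9me2, a mark of repressed and often late-replicating chromatin, mostly as a heterodimer with GLP. H3K27me3 is placed by EZH2 or EZH1 within Polycomb repressive complex 2 and covers silent developmental genes. Both marks are generally associated with repression, but they usually occupy different kinds of chromatin, and a nucleosome population can carry both when alleles or cells differ. Cells enriched for cardiomyocytes can hold other heart cells, and in bulk chromatin a change in the makeup of the cells and a change within cells cannot be told apart.

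A promoter was overlapped by 896 members, or 1.80%, against 1.70% of all G9a regions, and 22 members held a microRNA hairpin. Sequences from these few members are shown as examples and do not stand for the other members. Of the 31396 RefSeq promoters searched, each running from 250 bases before to 50 bases after a gene's start, 1004 promoters of 914 genes lay in or overlapped a member. The 6 shown next were chosen from the members named below because they differ in CpG content and in direction. They are printed 5′ to 3′ on the strand of the gene, from RefSeq on assembly GRCm38.p6, with each CG in capitals.
Dnmt3l, chr10:78042037-78042336, plus strand: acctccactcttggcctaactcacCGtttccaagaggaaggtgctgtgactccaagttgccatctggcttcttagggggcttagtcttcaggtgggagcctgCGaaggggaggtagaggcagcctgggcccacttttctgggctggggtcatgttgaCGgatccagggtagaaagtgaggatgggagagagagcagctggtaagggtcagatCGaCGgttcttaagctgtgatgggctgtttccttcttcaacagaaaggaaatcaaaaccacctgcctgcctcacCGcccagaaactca
Magel2, chr7:62376729-62377028, plus strand: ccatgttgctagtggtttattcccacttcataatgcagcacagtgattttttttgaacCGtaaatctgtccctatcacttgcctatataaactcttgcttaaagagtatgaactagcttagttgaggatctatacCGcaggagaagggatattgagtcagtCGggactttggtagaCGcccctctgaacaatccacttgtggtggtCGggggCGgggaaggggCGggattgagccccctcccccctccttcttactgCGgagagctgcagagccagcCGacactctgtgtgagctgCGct
Piwil1, chr5:128735996-128736295, plus strand: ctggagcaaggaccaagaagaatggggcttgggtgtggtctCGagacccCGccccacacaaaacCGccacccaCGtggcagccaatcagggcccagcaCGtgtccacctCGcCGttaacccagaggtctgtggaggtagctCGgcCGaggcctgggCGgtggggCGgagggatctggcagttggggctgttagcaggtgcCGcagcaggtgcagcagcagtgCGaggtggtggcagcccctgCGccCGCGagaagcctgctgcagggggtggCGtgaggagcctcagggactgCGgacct
Mael, chr1:166238695-166238994, minus strand: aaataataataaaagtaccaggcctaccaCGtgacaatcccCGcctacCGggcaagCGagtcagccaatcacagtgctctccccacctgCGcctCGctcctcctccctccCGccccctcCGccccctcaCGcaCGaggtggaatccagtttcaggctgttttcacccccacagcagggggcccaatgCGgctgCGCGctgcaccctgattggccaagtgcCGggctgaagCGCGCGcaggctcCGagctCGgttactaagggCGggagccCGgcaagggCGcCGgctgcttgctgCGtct
Dlk1, chr12:109452573-109452872, plus strand: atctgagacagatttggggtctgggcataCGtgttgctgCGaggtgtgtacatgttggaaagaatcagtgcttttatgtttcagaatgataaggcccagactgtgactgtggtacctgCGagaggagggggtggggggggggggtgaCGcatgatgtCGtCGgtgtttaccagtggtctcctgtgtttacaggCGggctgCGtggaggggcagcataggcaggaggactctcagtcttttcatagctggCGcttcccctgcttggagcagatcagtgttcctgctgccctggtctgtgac
Mucl2, chr15:103899263-103899562, minus strand: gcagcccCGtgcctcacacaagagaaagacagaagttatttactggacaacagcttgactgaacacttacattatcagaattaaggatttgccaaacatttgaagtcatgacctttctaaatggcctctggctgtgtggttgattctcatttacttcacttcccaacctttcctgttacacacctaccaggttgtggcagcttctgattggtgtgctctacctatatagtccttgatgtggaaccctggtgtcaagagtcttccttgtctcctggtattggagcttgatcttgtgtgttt

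The promoter of Mael, a germline gene of the piRNA pathway, held 24 CpG dinucleotides in its 300 bases. That of Piwil1, a PIWI protein of male germ cells, held 18. Magel2 and Dlk1, both imprinted genes, held 10 and 9, and Dnmt3l, a germline cofactor of DNA methylation, held 6. The promoter of Mucl2, a mucin-like gene, held 1. Of the Magel2 promoter 128 bases lay inside the member, and the other 5 promoters lay in their members whole.

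Over all 1004 promoters in members the median was 5 CpG, with quartiles of 3 and 9, against 7 CpG with quartiles of 3 and 21 over all promoters. In the members, 24.4% of promoters held 10 or more CpG, against 44.0% of all promoters. The other G9a regions were also below all promoters, with 37.0% where H3K27me3 only was shared, 14.7% where H3K9me2 only was shared and 37.8% with neither. The 275 promoters in members higher in the second pair in all 3 tables had a median of 6 CpG, and the 82 in members higher in the first pair in all 3 tables had a median of 3. The GC box letters GGGCGG, searched on both strands, were found in 28.0% of those 275 promoters, in 9.76% of those 82, and in 36.0% of all promoters. The TATA box letters TATAAA, also searched on both strands, were found in 9.82%, 25.6% and 13.6% of the same sets. A match of letters describes the sequence and is not evidence that a factor binds there.

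Of 919 microRNA hairpins on chromosomes 1 to 19, 223 overlapped a G9a region and 31 overlapped a member. The 31 hairpins lay in 22 members, and 11 of them lay on chromosome 12, in the imprinted Dlk1 to Meg3 domain, whose microRNAs are expressed from the maternal chromosome. The mature forms shown next come from that domain, from the Mir183, Mir96 and Mir182 cluster of sensory cells, from Mir142, a microRNA of blood cells, and from Mir196a-2 of the Hoxc cluster. The sequences are RefSeq's, 5′ to 3′, with the seed, bases 2 to 8, in capitals.
miR-337-5p: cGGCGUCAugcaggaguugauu
miR-540-3p: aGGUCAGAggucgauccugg
miR-665-3p: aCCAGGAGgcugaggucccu
miR-431-5p: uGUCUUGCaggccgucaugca
miR-380-3p: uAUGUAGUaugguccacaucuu
miR-495-3p: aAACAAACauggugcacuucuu
miR-183-5p: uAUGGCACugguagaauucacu
miR-96-5p: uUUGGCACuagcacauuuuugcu
miR-182-5p: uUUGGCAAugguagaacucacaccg
miR-142a-3p: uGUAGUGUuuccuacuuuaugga
miR-196a-5p: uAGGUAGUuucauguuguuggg

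None of these 11 mature forms shares its full seed with another, though the seeds of miR-96-5p, miR-182-5p and miR-183-5p share the letters UGGCA. G9a was higher in the second pair at 27 of the 31 hairpins, H3K27me3 at 28 and H3K9me2 at 9. The shares over all members were 51.0%, 54.4% and 45.4%. At 18 hairpins G9a and H3K27me3 were higher in the second pair while H3K9me2 was higher in the first, a pattern of 16.6% of all members. At 7 hairpins all 3 were higher in the second pair, against 18.2% of all members. At 1 hairpin, Mir495, all 3 were higher in the first, against 18.6%. Hairpins in the same member share its values, and some members share an H3K9me2 region. The hairpins are therefore not separate measurements.

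The member at chr12:109585401-109588950 held 6 of these hairpins, Mir337, Mir3544, Mir540, Mir665, Mir3070a and Mir3070b. G9a values there were 889 and 619 in the second pair, against 257 and 412 in the first pair, a log2 difference of 1.17. Its H3K27me3 region read 2443 and 2582 in the second pair, against 1670 and 1185 in the first pair. Its H3K9me2 region read 100 and 286 in the second pair, against 446 and 305 in the first pair, so that G9a and H3K9me2 went opposite ways and no library of one pair crossed into the other in any table. The next member, at chr12:109589001-109591300 with Mir431, shares that H3K9me2 region, and its G9a values were 708 and 451 in the second pair, against 263 and 192 in the first pair.

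Mir495, in the same domain at chr12:109718251-109719400, had G9a values of 85 and 108 in the second pair, against 315 and 167 in the first pair. The member that holds Mir183 and Mir96, at chr6:30168851-30172200, had G9a values of 884 and 849 in the second pair, against 403 and 248 in the first pair. The Mir142 member, at chr11:87756201-87757150, had G9a values of 235 and 250 in the second pair, against 130 and 108 in the first pair, and these pairs do not overlap. The Mir196a-2 member, at chr15:102972701-102973400, overlapped the H3K27me3 region with the highest values among the members with a hairpin. That region read 25690 and 24174 in the second pair, against 14269 and 14587 in the first pair.

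The members were short. Their width had a median of 750 bp, quartiles of 550 and 1100 bp and a range of 300 to 21700 bp, and together they covered 47.6 Mb. The tables' coordinates lie on a grid of 50 bp, so the smallest overlap possible was 50 bp. H3K27me3 regions covered a median of 90.5% of a member and H3K9me2 regions a median of 60.0%. In 46645 members, or 93.7%, at least 1 stretch lay in all 3 tables at once, and these stretches added up to 19.1 Mb. In 5022 members both marks covered the whole G9a region.

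The 49799 members used 47187 different H3K9me2 regions and 45859 different H3K27me3 regions, so some members share a partner. Where a member overlapped several regions of a mark, the one with the longest overlap was taken, and 2052 members had H3K9me2 regions of both directions and 5279 had H3K27me3 regions of both directions. At the edge of the rule, 2458 members overlapped a mark by 50 bp only. Their median width was 650 bp, their median absolute log2 G9a difference 0.99 and their median deposited -log10 p 4.45. The 2350 G9a regions just outside, which touched a region of the missing mark without sharing a base, had a median width of 600 bp, a median absolute difference of 0.97 and a median -log10 p of 4.37.

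Single members show how thin that edge is. The G9a region inside Grm4, a metabotropic glutamate receptor gene, at chr17:27453251-27460150, shared 50 bp with H3K9me2. Its G9a values were 3039 and 1682 in the second pair, against 958 and 1402 in the first pair. Just outside the rule, the G9a region at chr17:31429101-31433900 overlapped H3K27me3 only and touched an H3K9me2 region, with G9a values of 2788 and 1025 in the second pair, against 308 and 740 in the first pair.

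Per kilobase, the mean G9a value had a median of 138 in the members, against 136 in regions shared with H3K27me3 only, 129 in those shared with H3K9me2 only and 126 in those with neither. The members lay mostly away from genes. By any overlap, 6.89% reached within 2500 bp of an end of a protein-coding gene. Another 26.6% overlapped a gene body only, and 66.5% lay outside both. A wider region meets a gene more easily. The shares over all G9a regions were 9.24%, 32.6% and 58.2%. By chromosome the members made up 14.6% of the G9a regions of chromosome 7, the highest share, and 11.5% of those of chromosome 10, the lowest.

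The 4 G9a libraries were not alike within the members. Library 1 of the second pair was listed at 0 in 3.98% of the members, against 0.339% for the other second-pair library, and 0.823% and 0.0964% for the libraries of the first pair. Its median value was 79 in the members, against 117 for the other second-pair library and 95 and 113 for those of the first pair. Among the 24419 members with G9a higher in the first pair, this library was below its partner in 76.9%, and among the 25380 members with G9a higher in the second pair it was above its partner in 49.2%. Its part in the results below was not tested beyond leaving it out. The direction of G9a was kept in 94.0% of the members without that library, and in 94.0% to 97.9% of the members when any 1 of the 12 libraries was left out of its table.

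The first question was whether the authors' differences in these regions exceed the spread between libraries. Both values of one pair lay above both values of the other in 64.2% of the members for G9a, against 61.3% of all regions of the G9a table. The same held for 68.7% of the members' H3K9me2 regions, against 67.9% of that table, and for 74.6% of their H3K27me3 regions, against 69.2%. These shares follow from the authors' selection for a difference and are given as a description. An exact permutation test of 1 region with 2 libraries per pair cannot go below p = 0.333, two-sided.

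With limma on log2(value + 1) of all regions of a table, no member passed an adjusted p of 0.05 in any table, and the share called over all regions was 0% in each. The smallest adjusted p from limma was 0.461 for G9a, 0.191 for H3K9me2 and 0.106 for H3K27me3. At an unadjusted p under 0.05, limma counted 1447 members for G9a, or 2.91%, against 3.94% of all G9a regions. It counted 3851 H3K9me2 regions of members, or 8.16%, against 8.75% of that table, and 4282 H3K27me3 regions, or 9.34%, against 12.3%. These shares are near or below those of the whole tables. Without library 2 of the second pair, limma called G9a regions inside and outside the members. That fit assumes that the lone second-pair library varies like the first pair, and its calls are not read as differences.

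The second question was whether the enzyme and both marks differ in the same direction where they overlap. G9a was higher in the second pair in 25380 members, or 51.0%, H3K27me3 in 54.4% and H3K9me2 in 45.4%. All 3 were higher in the second pair in 9048 members, and all 3 were higher in the first pair in 9278. These 18326 members with 1 direction are 36.8% of the whole. The third common pattern was G9a and H3K27me3 higher in the second pair with H3K9me2 higher in the first, in 8252 members. The other 5 of the 8 possible patterns held 4034 to 5621 members each.

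**Figure D1:**
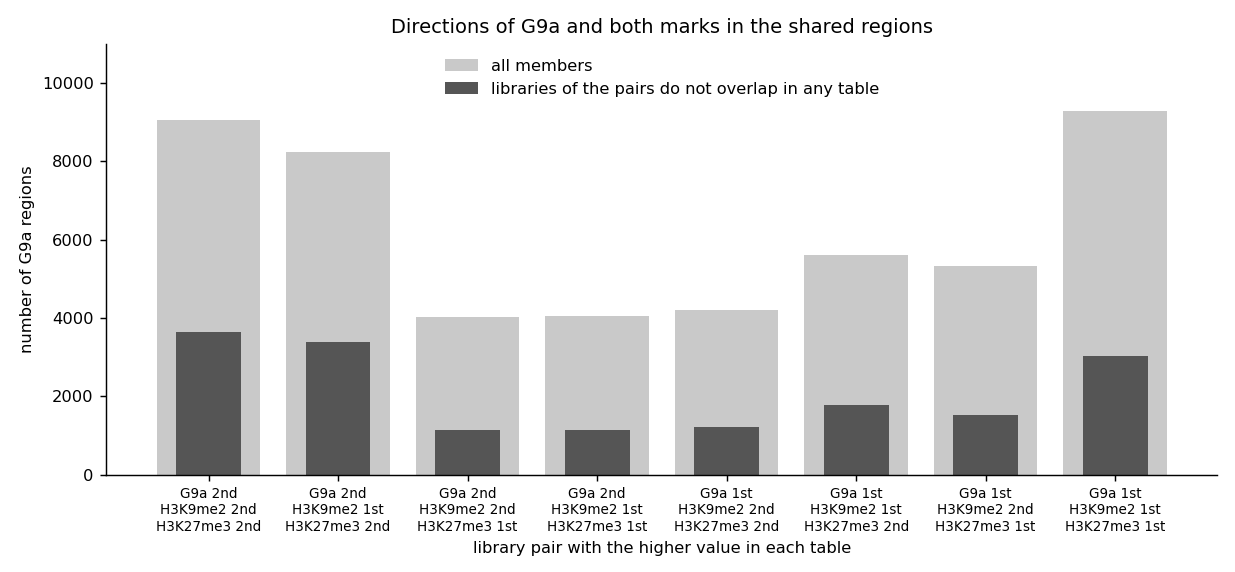
Number of members by the library pair with the higher value in each table (light bars), and of those with no overlap between the libraries of the pairs in any of the 3 tables (dark bars). The 3 tallest bars are the pattern with the second pair higher in all 3 tables (9048 members), the pattern with only H3K9me2 higher in the first pair (8252) and the pattern with the first pair higher in all 3 (9278).

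G9a and H3K27me3 had the same direction in 64.1% of the members, G9a and H3K9me2 in 56.2%, and the marks with each other in 53.3%. Outside the members the share was 64.0% for the 166098 G9a regions that met H3K27me3 only and 58.9% for the 26993 that met H3K9me2 only. The pairs of libraries did not overlap in any of the 3 tables in 16828 members, and of these 3640 were higher in the second pair in all 3 tables and 3025 in the first.

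How much of a member a mark covered went with its direction. Where H3K9me2 covered under 25% of the member, G9a and H3K9me2 had the same direction in 43.6% of 7125 members, and where it covered the whole member, in 63.4% of 9286. For H3K27me3 the shares were 48.7% of 3017 members at under 25% and 67.8% of 21541 members at full coverage. In the 3154 members without a stretch common to all 3 tables, 28.1% had 1 direction, against 37.4% of the others. Coverage, width and signal move together in these tables, and their separate parts were not tested.

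The strength of the deposited difference also went with direction. Among the 22407 members whose smallest -log10 p over the 3 tables was under 3, 33.3% had 1 direction in all 3. The share was 41.5% from 5 to under 10, 54.9% from 10 to under 20 and 75.8% of 182 members from 20 to under 40. At 40 or more all 21 members had 1 direction, 11 of them higher in the second pair and 10 in the first. Regions with more signal can reach a smaller p, and the part of signal in these shares was not tested.

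Direction went with width for G9a and H3K27me3. G9a was higher in the second pair in 38.4% of the 8946 members under 500 bp, in 90.9% of the 3019 members from 2000 to under 5000 bp, and in 276 of the 284 members of 5000 bp or more. H3K27me3 was higher in the second pair in 43.5%, 82.1% and 94.4% of the same classes. H3K9me2 showed no such slope, with 45.4%, 43.8% and 44.7%. In the widest class 119 members had all 3 higher in the second pair, 148 had H3K9me2 alone higher in the first, and 7 had all 3 higher in the first. G9a regions outside the members had the same slope. In the class from 2000 to under 5000 bp, G9a was higher in the second pair in 97.1% of 7402 regions shared with H3K27me3 only and in 87.4% of 459 regions with neither mark.

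**Figure D2:**
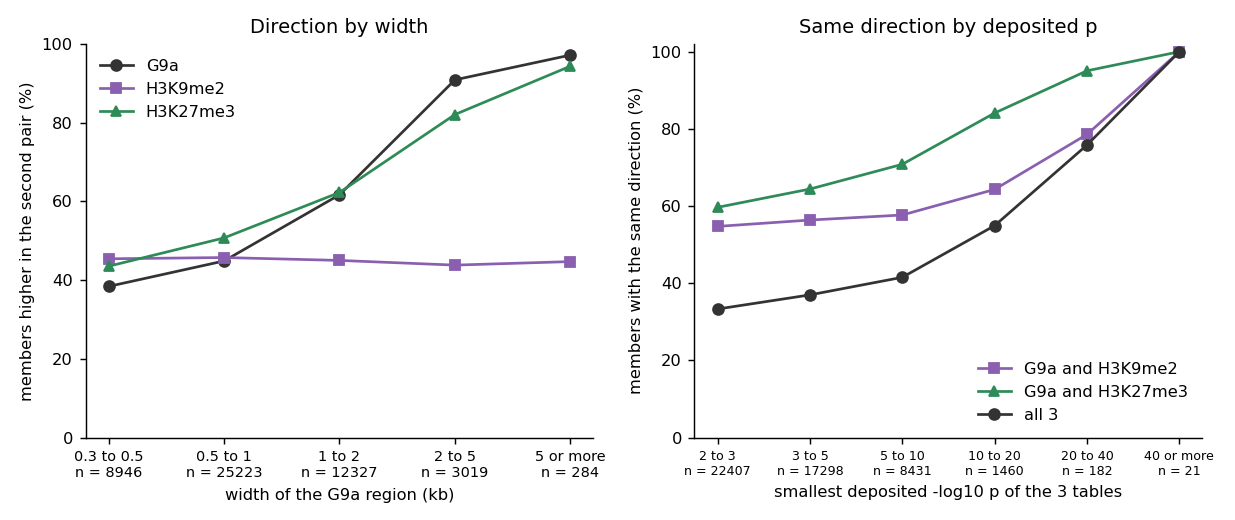
Left, share of members with the higher value in the second pair, by width of the G9a region in kb, for each table. Right, share of members with the same direction, by the smallest deposited -log10 p of the 3 tables. G9a and H3K27me3 climb with width to 97.2% and 94.4% while H3K9me2 stays near 45%, and agreement of all 3 climbs from 33.3% to 100%.

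In the widest members, library 1 of the second pair was the highest. Its median G9a value in the 284 members of 5000 bp or more was 2309, against 1416 for the other second-pair library and 625 and 887 for the libraries of the first pair. The widest member, 21700 bp inside Hmcn2, a gene of an extracellular matrix protein of the hemicentin family, lies at chr2:31367751-31389450. G9a values there were 11453 and 5547 in the second pair, against 2450 and 2913 in the first pair, a log2 difference of 1.66. Its H3K27me3 region read 1780 and 1553 in the second pair, against 1031 and 887 in the first pair. Its H3K9me2 region, which covered 900 bp of it, read 92 and 155 in the second pair, against 119 and 224 in the first pair, so these pairs overlap and the sign turned without library 2 of the first pair.

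The next widest members lay inside Sez6l, a neuronal membrane protein gene, and Itpr3, which encodes a calcium channel of the endoplasmic reticulum. The Sez6l member, at chr5:112512851-112528250, had G9a values of 5888 and 4207 in the second pair, against 1971 and 2251 in the first pair. The Itpr3 member, at chr17:27092201-27107550, had G9a values of 7740 and 3114 in the second pair, against 1776 and 2009 in the first pair. Both were higher in the second pair for H3K27me3 too, and H3K9me2 was higher in the first pair at Sez6l and in the second pair at Itpr3.

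Of the 6 strongest members higher in the second pair in all 3 tables, 4 lay farther than 2500 bp from any gene end. At the gene Ldc1, the member at chr4:130200451-130211400 spans 10950 bp, of which 8700 bp lie in all 3 tables. Its G9a values were 9217 and 3801 in the second pair, against 1250 and 2069 in the first pair, a log2 difference of 1.97 and the authors' deposited table lists its p as 0. H3K9me2 read 3706 and 5039 in the second pair, against 1829 and 1435 in the first pair, with a log2 difference of 1.42. H3K27me3 read 3911 and 5187 in the second pair, against 2515 and 2619 in the first pair, with a log2 difference of 0.83. No library crossed between the pairs in any of the tables.

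Nearby on the same chromosome, Laptm5, which encodes a lysosomal membrane protein of blood cells, had a member at chr4:130933301-130936400. G9a values there were 1297 and 573 in the second pair, against 331 and 308 in the first pair. H3K9me2 values there were 1342 and 1324 in the second pair, against 409 and 490 in the first pair. Laptm5 and Adgre1, which encodes the macrophage antigen F4/80, were the 2 of 7 leukocyte markers with a member near an end, and both members were higher in the second pair in all 3 tables, although G9a at Adgre1 turned sign without library 1 of the first pair. Over whole genes with 2500 bp either side, 5 of the 7 leukocyte markers had a member. By gene, 4 had one with G9a higher in the second pair and 2 had one with G9a higher in the first. The part of leukocytes in these values was not tested.

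Kcnip1, which encodes a subunit of A-type potassium channels, had an intragenic member at chr11:33727651-33730350. Its H3K27me3 values were 8001 and 7798 in the second pair, against 4129 and 5144 in the first pair. Its G9a values were 1179 and 963 in the second pair, against 247 and 663 in the first pair. The members at chr7:12014151-12018300, chr4:131113401-131117100 and chr1:73830401-73834850 lay between genes, and their log2 G9a differences were 1.87, 1.68 and 1.07.

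Of the 6 members chosen as strongest with the first pair higher in all 3 tables, 5 lay in the cluster of KRAB zinc finger genes on distal chromosome 4. KRAB zinc finger proteins are repressors that bind, among other sites, transposable elements. The member at Zfp992, chr4:146447451-146451300, had G9a values of 127 and 993 in the second pair, against 1357 and 1606 in the first pair, a log2 difference of -1.40. Its H3K9me2 values were 1388 and 1175 in the second pair, against 2662 and 1982 in the first pair. Its H3K27me3 values were 1807 and 1063 in the second pair, against 3437 and 2823 in the first pair. All 3 tables were therefore lower in the second pair, with library 1 the lowest for G9a.

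The member at Zfp981, chr4:146535451-146538750, had H3K9me2 values of 4 and 64 in the second pair, against 351 and 335 in the first pair, a log2 difference of -3.30. G9a values there were 128 and 861 in the second pair, against 1026 and 1331 in the first pair. The member inside Zfp978, chr4:147266051-147267950, had H3K27me3 values of 2786 and 1666 in the second pair, against 4477 and 4031 in the first pair. The other member chosen in this direction lay at chr16:3252351-3253150, far from any gene. Its G9a values were 15 and 2 in the second pair, against 234 and 185 in the first pair.

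**Figure D3:**
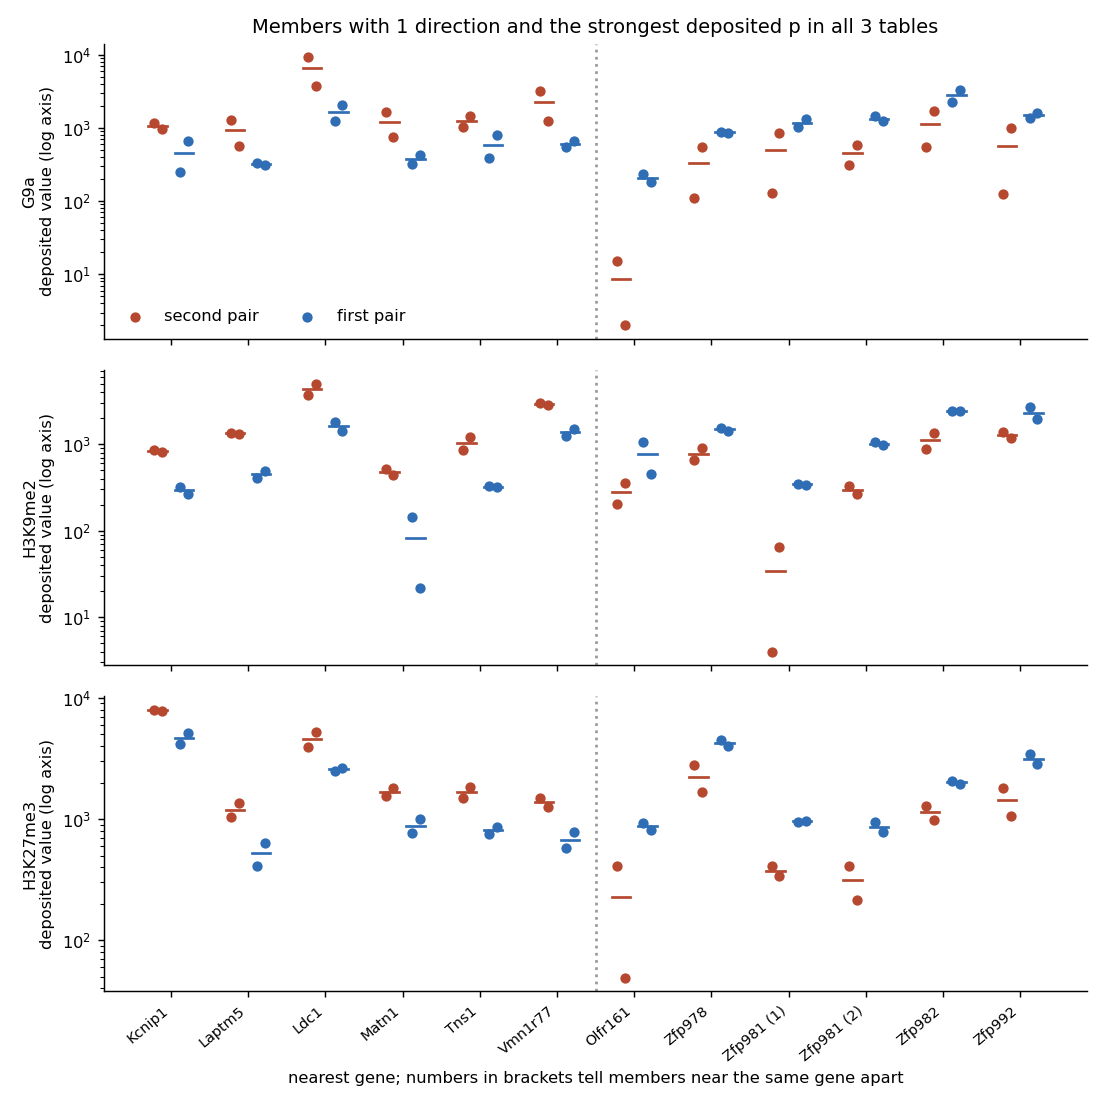
Deposited values (log axis) of the 4 libraries in each table for the 12 members with 1 direction, no overlap between pairs and the largest smallest -log10 p, named by their nearest gene. Points are libraries, second pair left of first pair, and short lines are pair means; at the Ldc1 member the second pair reads 9217 and 3801 for G9a against 1250 and 2069 in the first pair, and at the Zfp members the order is turned.

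From 145 to 148 Mb on chromosome 4 there were 255 members, of which 150 were higher in the first pair in all 3 tables and 6 were higher in the second. G9a was higher in the second pair in 21.2% of these members, H3K9me2 in 16.5% and H3K27me3 in 19.6%. In the other 49544 members the shares were 51.1%, 45.5% and 54.6%. In the window from 147 to 148 Mb, members made up 151 of 268 G9a regions, against a median of 12.1% over the 2007 windows of 1 Mb with at least 100 G9a regions. These zinc finger genes are near-identical copies of one another, and the sources used here do not state how reads with several matches were placed, so values at single copies are uncertain. Not every member there moved as 1. At Zfp982, chr4:147443251-147445900, G9a read 46 and 345 in the second pair, against 490 and 903 in the first pair, while H3K27me3 read 1072 and 825 in the second pair, against 773 and 663 in the first pair.

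The opposite pattern was densest on the same chromosome from 153 to 154 Mb, around Ajap1, which encodes an adherens junction protein. There 139 of 338 G9a regions were members, 76 of them higher in the second pair in all 3 tables and 2 higher in the first. Another window of chromosome 4, with the glutamate receptor gene Grik3, held 50 members with the second pair higher in all 3 tables and 0 with the first. The window of Srrm4 and Cit on chromosome 5 held 50 and 4, and that of Tmem132e on chromosome 11 held 51 and 3. Further windows with the first pair higher held Prl2c2 and Prl2c3, prolactin family genes of the placenta, on chromosome 13, where all 3 tables were higher in the second pair at 3 members and in the first pair at 46. A window of chitinase-like genes on chromosome 3, with Chil3 and Chil4, had all 3 higher in the second pair at 9 members and in the first pair at 29.

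**Figure D4:**
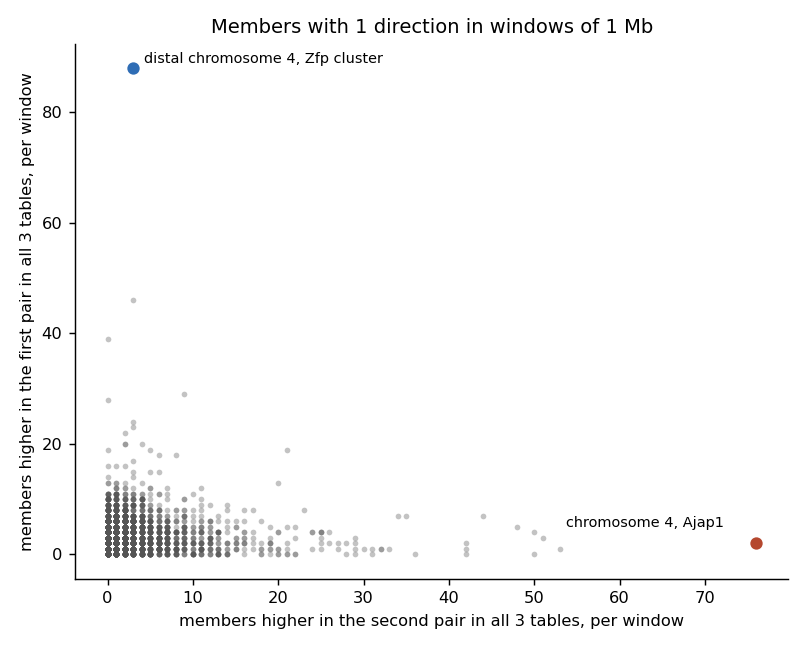
Each point is a window of 1 Mb on chromosomes 1 to 19 that holds a member; the x axis counts members higher in the second pair in all 3 tables, the y axis those higher in the first pair in all 3. Most windows hold few members of either kind and lie near the origin, while the Ajap1 window lies at 76 and 2 and the zinc finger window at 3 and 88.

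Most members stood alone. With gaps of at most 5 kb the members formed 37413 runs, and 29449 of these held 1 member. Of the 49799 members, 12386 had another member no more than 5 kb before them. Of these, 26.4% had the same 3 directions as that neighbour, and 56.8% the same G9a direction. The commonest pattern of 3 directions made up 18.6% of all members. Neighbours can share a region of a mark, and the spacing of other G9a regions was not measured. The longest run, with gaps of at most 5 kb, held 50 members at chr17:13308001-13413850, in a window with the testis genes Smok2a, Smok2b and Tcp10c. In this run 11 members were higher in the second pair in all 3 tables and 6 in the first, and G9a was higher in the second pair in 26 of the 50. In the next longest run, 43 members at chr13:12865251-12942600, these counts were 0 and 24, and 8 had the higher G9a values in the second pair.

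The members in which H3K9me2 opposed both G9a and H3K27me3 were described next. At Tcl1b5, chr12:105174151-105175700, H3K9me2 read 29 and 24 in the second pair, against 175 and 198 in the first pair, a log2 difference of -2.77. G9a read 555 and 255 in the second pair, against 85 and 205 in the first pair, and H3K27me3 read 4932 and 4256 in the second pair, against 2359 and 2300 in the first pair. A second Hmcn2 member, at chr2:31417351-31427300, had G9a values of 5136 and 2616 in the second pair, against 866 and 1633 in the first pair. H3K9me2 values there were 6 and 40 in the second pair, against 183 and 165 in the first pair. In both members G9a was higher and the overlapping H3K9me2 region lower in the second pair, with no overlap between pairs. H3K9me2 regions covered 850 of 1550 bp at Tcl1b5 and 1150 of 9950 bp at Hmcn2. The G9a values are those of the whole members, and G9a over the shared stretches alone was not tested.

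The opposite also occurred, with G9a and H3K9me2 higher and H3K27me3 lower in the second pair. The member at chr14:19419501-19420200 was 700 bp wide and far from any gene. It overlapped the H3K9me2 region with the largest values of the named members. These were 24927 and 24995 in the second pair, against 15467 and 16905 in the first pair. That region, chr14:19415301-19420150, shared 650 bp with the member. The H3K27me3 region, chr14:19415201-19420150, had nearly the same bounds, and the authors' deposited p is listed as 0 for both marks. The sources used here do not state how reads with several matches were placed. Whether such reads raise the values at this place was not tested. The member's H3K27me3 region read 11788 and 15764 in the second pair, against 25647 and 23340 in the first pair. The G9a values of the member itself were 570 and 565 in the second pair, against 175 and 414 in the first pair.

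Among members near 1 to 4 genes, those with the smallest G9a p in the authors' deposited table and the second pair higher lay at Kif26a, Elfn1, Rab36, Cpne5, Odf3l2 and Ldc1. Kif26a, an atypical kinesin, had G9a values of 4958 and 2281 in the second pair, against 953 and 867 in the first pair, with H3K27me3 values of 1396 and 1274 in the second pair, against 356 and 885 in the first pair. Rab36, a small GTPase of vesicle transport, had G9a values of 2677 and 1655 in the second pair, against 503 and 615 in the first pair. Its H3K27me3 values were 9464 and 8327 in the second pair, against 4660 and 5219 in the first pair. Elfn1, a synaptic adhesion protein, had a log2 G9a difference of 1.70, and its deposited -log10 p was 295. H3K27me3 covered the whole Rab36 member and 9100 of 9550 bp at Elfn1, while H3K9me2 covered 450 of 6700 bp at Rab36 and 650 bp at Elfn1.

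With the first pair higher, the member at Mucl2, chr15:103897601-103900250, which holds the Mucl2 promoter printed above, was the only one of the 6 outside the zinc finger cluster. G9a values there were 119 and 402 in the second pair, against 516 and 1066 in the first pair. Its H3K9me2 values were 220 and 211 in the second pair, against 565 and 404 in the first pair, and its H3K27me3 values were 619 and 265 in the second pair, against 1078 and 860 in the first pair.

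Gene groups were then read from 26 lists. Of all 20661 protein-coding genes, 2816, or 13.6%, had a member within 2500 bp of an end. Over the 3432 members near such an end the median log2 difference was 0.68 for G9a, -0.67 for H3K9me2 and 0.64 for H3K27me3. Of these 3432, G9a was higher in the second pair in 59.8%, H3K9me2 in 43.3% and H3K27me3 in 71.6%, all 3 were higher in the second pair in 23.4%, and all 3 were higher in the first in 11.6%. These are the shares that the counts of each list stand beside. Several members can lie near 1 gene and can share a region of a mark, so the members of a list are not separate measurements. The highest shares of genes with a member were those of Hox genes, keratins and other developmental regulators. Over whole genes with 2500 bp either side, 25.3% of all protein-coding genes had a member.

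Of 39 Hox genes, the homeobox genes that set body axis identity, 19 had a member, or 48.7%. H3K27me3 was higher in the second pair in all 24 of the members near them, G9a in 17, or 70.8%, and H3K9me2 in 13, or 54.2%, and none was higher in the first pair in all 3 tables. Their median log2 differences were 0.63 for G9a, 0.68 for H3K9me2 and 0.60 for H3K27me3. At Hoxa4, chr6:52189151-52190750, G9a was lower in the second pair, with 39 and 243 in the second pair, against 301 and 367 in the first pair. The Hoxc13 member had H3K27me3 values of 12638 and 11208 in the second pair, against 8825 and 8063 in the first pair.

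Of 80 other developmental regulators 34 had a member, or 42.5%, and H3K27me3 was higher in the second pair in 41 of their 43 members. The median log2 differences were 0.69 for G9a, 0.60 for H3K9me2 and 0.62 for H3K27me3. At Neurog3, a proneural factor of the endocrine pancreas, the member at chr10:62136051-62139200 had G9a values of 1283 and 859 in the second pair, against 426 and 528 in the first pair. H3K9me2 values there were 506 and 423 in the second pair, against 235 and 240 in the first pair, and its H3K27me3 values were 8812 and 7478 in the second pair, against 3961 and 5093 in the first pair. Gata2, a blood and endothelial factor, had a member with H3K27me3 values of 14792 and 13595 in the second pair, against 7638 and 10429 in the first pair. At Neurog1 H3K9me2 was lower in the second pair, with 29 and 43, against 65 and 67 in the first pair.

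Keratins and keratin-associated proteins, the filament proteins of epithelia and hair, had members at 52 of 109 genes, or 47.7%, and 32 of their 85 members were higher in the second pair in all 3 tables, against 3 in the first. Their median log2 differences were 0.81 for G9a, 0.63 for H3K9me2 and 0.74 for H3K27me3. Krt82, a hair keratin, had a member at chr15:101543151-101547500 with G9a values of 1106 and 1097 in the second pair, against 266 and 546 in the first pair. Its H3K27me3 region, shared with the next member, read 13356 and 11230 in the second pair, against 7076 and 5598 in the first pair.

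Of 42 neuronal genes 15 had a member near an end, and 38 had one over the whole gene with 2500 bp either side. Of the 22 members near an end, 16 had the higher G9a values in the second pair, or 72.7%, against 59.8% near all genes. The Rbfox3 member, near the gene of the neuronal nuclear antigen NeuN, had H3K27me3 values of 7831 and 6959 in the second pair, against 4303 and 4328 in the first pair. Its G9a values were 1247 and 769 in the second pair, against 425 and 340 in the first pair. At Grin1, which encodes the obligatory NMDA receptor subunit, G9a read 580 and 419 in the second pair, against 174 and 154 in the first pair, and H3K9me2 read 28 and 37 in the second pair, against 59 and 83 in the first pair.

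Of 29 imprinted genes 11 had a member, or 37.9%. At Magel2, whose promoter is printed above, the member at chr7:62376901-62379700 had G9a values of 1119 and 916 in the second pair, against 405 and 484 in the first pair. Its H3K9me2 values were 517 and 373 in the second pair, against 173 and 320 in the first pair. At Dlk1, an imprinted growth regulator of the Notch ligand family, G9a read 538 and 1077 in the second pair, against 461 and 258 in the first pair, and H3K27me3 read 15176 and 12258 in the second pair, against 8478 and 9787 in the first pair. Dlk1 had 5 members near its ends, and Syt6, a synaptotagmin gene, had 7. At Igf2, a paternally expressed growth factor, G9a read 187 and 197 in the second pair, against 49 and 56 in the first pair, and the H3K9me2 difference there turned sign without library 2 of the second pair.

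Of 24 germline genes 5 had a member. The Piwil1 member, at chr5:128735451-128738350, had G9a values of 735 and 643 in the second pair, against 96 and 289 in the first pair. Its H3K27me3 values were 4579 and 3565 in the second pair, against 2641 and 1863 in the first pair, while H3K9me2 was low and read 18 and 30 in the second pair, against 45 and 65 in the first pair. The Mael member was higher in the second pair in all 3 tables, with G9a values of 380 and 313 in the second pair, against 109 and 207 in the first pair. For both marks the pairs overlap there. H3K9me2 read 301 and 110 in the second pair, against 49 and 153 in the first pair. H3K27me3 read 225 and 412 in the second pair, against 144 and 258 in the first pair. Of 7 DNA methyltransferase and Tet genes only Dnmt3l had a member, with G9a values of 1066 and 624 in the second pair, against 265 and 289 in the first pair.

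Clustered protocadherins, the adhesion proteins that mark single neurons, had members at 23 of 57 genes, but these genes share exons and ends, and only 18 members lay behind that count. Zinc finger genes named Zfp had members at 26 of 388, or 6.70%. Among their 42 members 3 were higher in the second pair in all 3 tables and 24 in the first, and the median log2 differences were -0.94 for G9a, -1.28 for H3K9me2 and -0.81 for H3K27me3. Olfactory receptors had members at 176 of 1104 genes, or 15.9%, and vomeronasal receptors at 45 of 352, or 12.8%, both near the share of all genes. Of the 62 members near vomeronasal receptors, 3 were higher in the second pair in all 3 tables and 26 in the first. For olfactory receptors these counts were 31 and 54 of 197. These receptor and zinc finger families hold many similar copies.

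**Figure D5:**
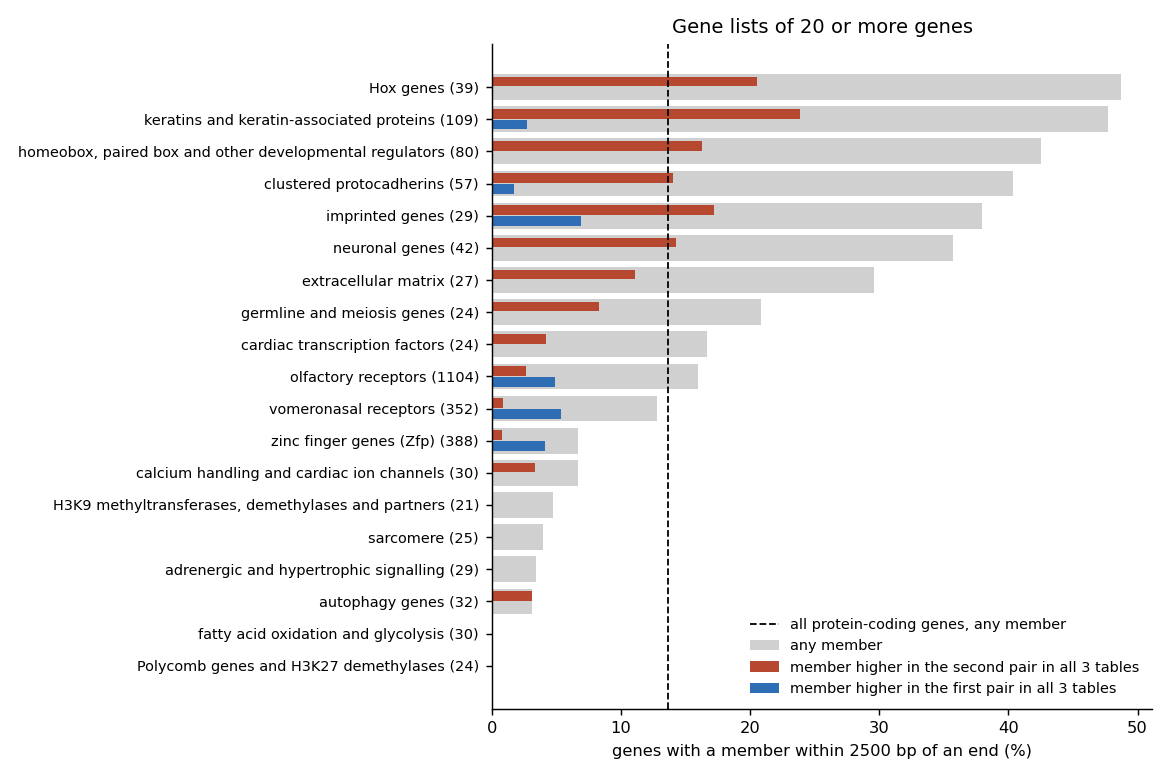
Share of the genes of each list with a member within 2500 bp of an end (grey), with a member higher in the second pair in all 3 tables (red) and with one higher in the first pair in all 3 (blue), for lists of at least 20 genes, with the number of genes in brackets. The dashed line marks the 13.6% of all protein-coding genes; Hox genes reach 48.7%, and the lists for fatty acid oxidation with glycolysis and for Polycomb genes stand at 0.

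The cardiac lists differed among themselves. None of the 7 cardiomyocyte markers or the 17 fetal and stress genes such as the natriuretic peptides had a member near an end, but only 3 and 11 of these genes had any G9a region there. Over whole genes with 2500 bp either side the counts were 0 of 7 and 4 of 17, the second being 23.5%, against 25.3% of all protein-coding genes. A count of 0 in lists this short is not read as lower than the 13.6% of all genes. Among lists that are not cardiac in particular, the 30 genes of fatty acid oxidation and glycolysis and the 24 Polycomb genes and H3K27 demethylases had no member near an end, and 2 and 1 of them had one over the whole gene. Of 25 sarcomere genes only Myl7, the atrial myosin light chain, had one, at chr11:5895401-5898200. G9a values there were 835 and 478 in the second pair, against 230 and 320 in the first pair. H3K9me2 values there were 45 and 9 in the second pair, against 20 and 115 in the first pair, and this difference turned sign without library 2 of the first pair. A table of differing regions cannot show whether marker genes carried the marks, so the cardiomyocyte label could not be checked from these files.

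Of 24 cardiac transcription factors 4, or 16.7%, had a member, Gata5, Hand1, Hey1 and Isl1. At Gata5, chr2:180337051-180339500, G9a read 1172 and 534 in the second pair, against 309 and 270 in the first pair. H3K9me2 read 11 and 2 in the second pair, against 33 and 134 in the first pair, and H3K27me3 read 1098 and 662 in the second pair, against 700 and 526 in the first pair, where the pairs overlap. At Hand1, which drives early heart development, H3K27me3 read 7788 and 6327 in the second pair, against 4114 and 5528 in the first pair, and G9a read 552 and 882 in the second pair, against 344 and 487 in the first pair. Hey1, a Notch target, had G9a values of 461 and 379 in the second pair, against 59 and 158 in the first pair.

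Of 27 extracellular matrix genes 8 had a member near an end. Over the whole gene with 2500 bp either side 19 had one, or 70.4%, against 25.3% of all protein-coding genes. Over whole genes, 15 had a member with G9a higher in the second pair and 10 had one with G9a higher in the first. G9a was higher in the second pair in 14 of the 15 members near an end, against 59.8% near all genes, and H3K27me3 in 11, against 71.6%. These 15 members lay near 8 genes, and Col5a3 alone had 5 members near its ends, so they are not separate measurements. By gene, 8 had a member near an end with G9a higher in the second pair, and 1 had one with G9a higher in the first. Mmp2, a gelatinase, had G9a values of 740 and 794 in the second pair, against 183 and 281 in the first pair, and H3K27me3 values of 3822 and 2901 in the second pair, against 1898 and 2081 in the first pair. The member at Col5a3, a fibrillar collagen chain, had a log2 difference of 0.98 for G9a, 0.86 for H3K9me2 and 0.72 for H3K27me3. Of 30 calcium handling and ion channel genes Cacna1d and Kcna5 had members. At Kcna5, an atrial potassium channel, H3K27me3 read 5152 and 4958 in the second pair, against 2722 and 3118 in the first pair.

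Among markers of other heart cells, none of the 6 fibroblast markers had a member near an end, but only 4 of them had any G9a region there. Of the 7 endothelial markers Erg and Kdr had a member near an end, and of the 6 smooth muscle and pericyte markers Pdgfrb and Rgs5. Over whole genes with 2500 bp either side, 2 fibroblast, 5 endothelial and 4 smooth muscle and pericyte markers had a member, against 25.3% of all protein-coding genes. Lists this short are not read as higher or lower than all genes. At Erg G9a read 1234 and 613 in the second pair, against 316 and 382 in the first pair. At Kdr all 3 tables read higher in the first pair, but the G9a values of 139 and 97 in the second pair overlap those of 100 and 224 in the first pair, and that difference turned sign when libraries were scaled to their median.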

How the data were processed

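Each of the 12 immunoprecipitated libraries entered 1 of 3 tables, 1 per antibody. BWA 0.7.10-r789, SAMtools 1.1 and build mm10 (GRCm38) are named in the submitters' processing notes. The sources used here name no caller, scaling or input correction for the differing regions, and no library depth. The authors deposited, per region, a direction, 4 whole-number values and a -log10 p, with no header. As their scaling is unknown, these deposited values were not read as raw counts, and no count model was fitted. The -log10 p is the authors', and no listed p exceeds 0.01. The tables do not say which pair of values is sham. If the second pair is TAC, second over first reads as TAC over sham, and if not, every direction turns round.

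Overlaps were found with bedtools 2.31.1, from 1 bp. Where several regions of a mark met a member, the longest overlap was used, then the smaller p. Differences were tested across each whole table on the log2(value + 1) scale with limma 3.58.1 under R 4.3.3, with Benjamini-Hochberg adjustment, after a test on simulated data. Labels call the libraries biological replicates, and with 2 per pair the spread is poorly measured. Gene ends and promoters come from RefSeq on GRCm38.p6. Windows reach 2500 bp either side of a protein-coding gene's ends.

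Named members were the 6 per direction with the smallest G9a p near 1 to 4 genes, the 6 per direction strongest in all 3 tables, 4 per direction of H3K9me2 with opposed marks, up to 3 per gene list, the 3 widest and those nearest the overlap threshold. Some of these members are not reported here. The windows, hairpins and promoters named were chosen after their values were seen. The members, lists and rules were chosen with earlier results of these data known.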

Additional observations from a re-analysis of the deposited data

How the results depend on the processing

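Asking for 50% coverage by each mark left 25903 members, and a deposited p of 1e-05 or less in all 3 tables left 10094. At that p the share with G9a higher in the second pair was 58.5%, and leaving out 1 G9a library at a time gave 47.0% to 53.5%. The 18326 members with 1 direction numbered 6665 where the pairs did not overlap in any table, 10628 at 50% coverage and 4463 at the stricter p, since each of these settings keeps fewer members. Without the members of distal chromosome 4, a setting chosen after seeing the data, 18170 had 1 direction, and leaving out 1 library at a time gave 17840 to 18434.

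The median log2 difference of the members lies in the gap between the 2 directions and moves easily. For G9a it was 0.49, 0.75 with libraries scaled to their median, and -0.25 to 0.28 with 1 library left out, negative without library 2 of the second pair. For H3K9me2 it was -0.61, -0.44 with that scaling, and -0.34 to -0.20 with 1 library left out. For H3K27me3 it was 0.42, 0.71 with that scaling, and 0.075 to 0.29 with 1 library left out. The limma calls among members stayed at 0 in each table under each other setting, and ranged from 0 to 4003 for G9a with 1 library left out, the 4003 being without library 2 of the second pair. The cause was not tested. Genes with a member near an end numbered 1664 with windows of 1000 bp and 5218 over whole genes with 2500 bp either side.

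Of 240 values of named members, 228 kept their sign under all 6 alternatives. H3K27me3 at Olfr770 was -0.68, and 0 without library 2 of the second pair. The other 11 turned sign with 1 library left out, over these ranges. For H3K9me2 they were -2.78 to 0.42 at Myl7, -0.34 to 2.94 at Cpne5, -0.89 to 0.053 at Hmcn2, -0.92 to 0.25 at Zfp993 and -0.011 to 1.55 at Igf2. For H3K27me3 they were -0.083 to 0.99 at Krt83, -0.52 to 1.46 at Vmn2r117 and -0.019 to 3.02 at Cpne5. For G9a they were -0.14 to 2.96 at Adgre1, -0.16 to 1.86 at Pcdhb11 and -0.92 to 0.24 at Kdr, where median scaling gave 0.027. No paired analysis was possible because the tables' values carry no replicate numbers. Depth is unknown and limits every low value.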
